A study of Homo sapiens with 16 samples.

Results

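The genes of terminal keratinocyte differentiation were examined as a group of 40, made up of suprabasal keratins, precursors of the cornified envelope, the enzymes that cross-link them, desmosomal proteins of the upper epidermis, and the proteases and lipid enzymes of the barrier. The members were chosen by symbol, and all 40 were found among the 26229 genes of the count table. A mean above 10 counts per library was required for testing, which kept 28 of the 40 members and 14673 genes in all.

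The RNA-seq libraries came from A431, an epidermoid carcinoma line, and HaCaT, a line of spontaneously immortalised keratinocytes, both grown in DMEM with 10% FCS. Each line had 1 library with a control siRNA (siCTRL), 3 with YAP1 siRNA (siYAP), 1 with an empty expression vector and 3 with a vector for YAP5SA, a YAP1 mutant that is active at all times, which gave 16 libraries in 8 groups. The vector arms received no siRNA and the siRNA arms no vector, and RNA was taken 48 h after the second of 2 siRNA transfections made 24 h apart. Vectors were also introduced by transfection, and whether a line was cloned afterwards is not given in the sources used here. The comparisons ask how these genes respond when YAP, a transcriptional co-activator of basal layer keratinocytes, is depleted or held active.

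The depth was 18115599 to 46791617 read pairs per library, so that 3 counts corresponded to 0.063 to 0.164 CPM. CPM here is the edgeR measure of counts scaled to the library total and its TMM factor, and levels are compared within a gene only, because gene length was not used. YAP1 itself, the targeted gene, stood at 94.2 CPM with siCTRL and at 5.04 to 6.99 CPM with siYAP in A431 cells, and at 254 CPM and 21.6 to 23.2 CPM in HaCaT cells. With YAP5SA, reads assigned to YAP1 reached 1494 to 3244 CPM in A431 (empty vector, 124 CPM), and 7546 to 22243 CPM in HaCaT cells (423 CPM). The YAP1 levels went with the labels in all 16 libraries. Each arm of each line had 1 control library only, so the spread between control cultures could not be measured, and p values for comparisons with a control rest on the spread between the treated libraries.

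In the epidermis, keratinocytes divide in the basal layer on the basement membrane and differentiate as they move upwards. Suprabasal cells first make the keratin pair KRT1 and KRT10, then deposit involucrin, envoplakin, periplakin, loricrin and the small proline-rich proteins beneath the plasma membrane, where transglutaminases cross-link them into the cornified envelope. Filaggrin packs the keratin filaments, lipoxygenases, a lipid transporter and ceramide enzymes supply the lipids outside the cell, and kallikreins later cut the corneodesmosomes so that dead cells are shed. In flat submerged culture keratinocytes express these genes to widely varying degrees, and KRT4 and KRT13 are better known as suprabasal keratins of internal squamous epithelia than of skin.

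YAP has no DNA-binding domain of its own and acts mainly through TEAD factors, often at sites shared with AP-1. Promoter windows from 250 bases before to 50 after the start were read from RefSeq (GRCh38.p14) for the 29 members found there. The TEAD letters GGAATG, on either strand, were in the window of 11 of these 29 members and of 16.7% of all 27305 genes. The AP-1 letters TGANTCA, on either strand, were in 11 of 29 members and in 9.37% of all genes. Both motifs lay within a stretch of 30 bases in 4 members, FLG, SPRR1A, SPRR1B and ALOXE3, and in 0.37% of all genes. The GRHL letters AACCNGTT, on either strand, were found in TGM5 alone among the members, and in 2.14% of genes. The stretches below are shown because FLG, KLK5, SCEL, IVL and SPRR1B carry results described here, with SPRR1A for comparison. Each is 5′ to 3′ on the strand of its gene, with the motif letters in capitals. The FLG motifs overlap, at chr1:152325302-152325331 on the minus strand. The SPRR1A stretch is chr1:152983972-152984001 and that of SPRR1B chr1:153031091-153031120, both on the plus strand, and in each the AP-1 letters come before the TEAD letters. KLK5 is shown with TEAD letters at chr19:50953078-50953107 on the minus strand, and IVL and SCEL with their AP-1 letters at chr1:152908412-152908441 and chr13:77535646-77535675, both on the plus strand. A further TEAD match of KLK5, in reverse at chr19:50953169-50953198, and a further AP-1 match of SPRR1B, at chr1:153031051-153031080, are not shown.
FLG: gtttggttaGGAATGAATCAgaccatccca
SPRR1A: gTGAGTCAtgtgtgacaggtgaGGAATGaa
SPRR1B: gTGAATCAcatctgacaggtaaGGAATGta
KLK5: cctcattgcccgGGAATGtgccccagggag
IVL: gatgcctgtggTGAGTCAggaaggggttag
SCEL: tcctccctgagTGACTCAgccgctgagcaa
Such a match is a run of letters and not a measured binding site, since no binding was measured here. The windows of TMPRSS11E, KRT10, ELOVL4 and KLK7, whose RNA levels changed as described below, held none of the 3 motifs.

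**Figure D1:**
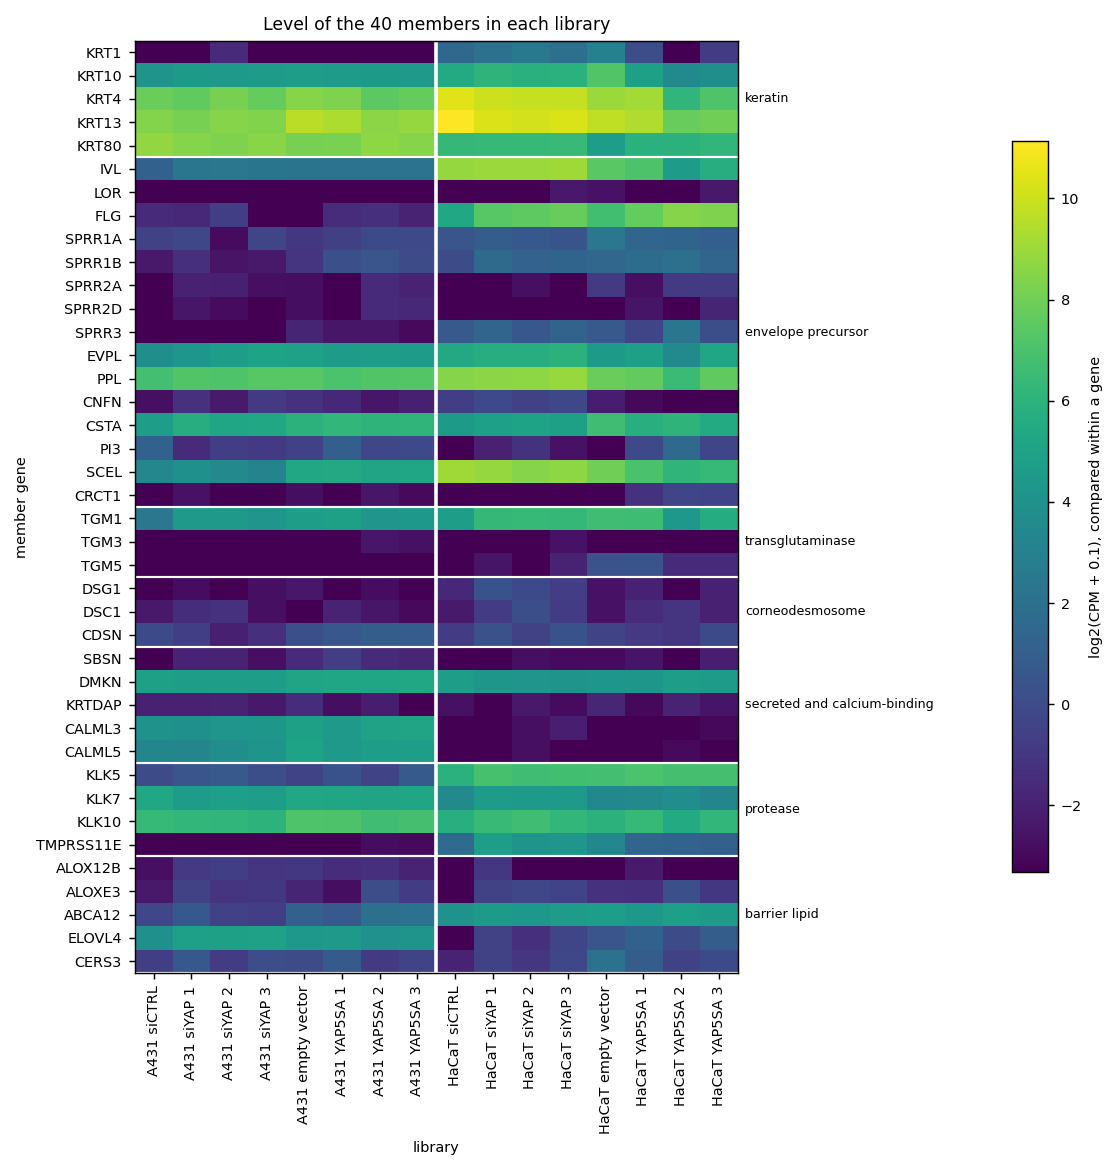
Levels of the 40 members (rows, grouped by role) in each of the 16 libraries (columns, A431 left and HaCaT right of the white line), as log2(CPM + 0.1) on the colour scale. KRT4, KRT13, IVL, FLG and SCEL are bright in HaCaT siCTRL or siYAP libraries, CALML3 and CALML5 are dark throughout HaCaT cells, and LOR, TGM3 and CRCT1 are dark nearly everywhere.

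Both lines transcribed only a subset of the differentiation genes at an appreciable level. In 17 members no group was confined to 3 counts or fewer, whereas in 23 members at least 1 group had 3 counts or fewer in every library. TGM3, a transglutaminase of the cornified envelope and hair, was at or under 3 counts in all 8 groups. LOR, which encodes the abundant envelope protein loricrin, and CRCT1 were so in 7 groups, all but HaCaT YAP5SA. The corneodesmosomal cadherin DSG1 was at this floor in the 4 A431 groups and HaCaT empty vector, and TGM5 in the 4 A431 groups and HaCaT siCTRL. Of the small proline-rich genes, SPRR2D was at the floor in A431 siCTRL and empty vector and in HaCaT siCTRL, siYAP and empty vector. SPRR2A was so in the same groups other than HaCaT empty vector, whereas SPRR1A was at the floor in no group. DSC1 was at the floor in siCTRL and empty vector of both lines, SBSN in A431 siCTRL and in HaCaT siCTRL, siYAP and empty vector, and KRTDAP in A431 siCTRL and YAP5SA and HaCaT siCTRL and siYAP. CNFN was so in A431 siCTRL and HaCaT YAP5SA, and ALOX12B in A431 siCTRL and HaCaT siCTRL and empty vector. These 12 genes were not tested, since their mean count was at or under 10.

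The tested members at the floor in some groups were so in a single line, apart from ALOXE3. A member at the floor throughout a line could pass the count filter only through high counts in the other line. The split is therefore partly set by the filter. TMPRSS11E, a transmembrane serine protease of squamous epithelia, was at the floor in the 4 A431 groups, SPRR3 in A431 siCTRL, siYAP and YAP5SA, KRT1 in A431 siCTRL, empty vector and YAP5SA, FLG in A431 empty vector and SPRR1B in A431 siCTRL. In HaCaT cells CALML5, a calmodulin-like protein of the differentiating epidermis, was at the floor in the 4 groups, its relative CALML3 in siCTRL, empty vector and YAP5SA, the elastase inhibitor PI3 in siCTRL and empty vector, and ELOVL4 and CERS3 in siCTRL. ALOXE3 was at the floor in the siCTRL library of both lines. Reads of 75 bases from most members were unique by sequence. In SPRR2A 23.9% of all 75-base windows of its transcripts were shared with another gene, in SPRR2D 8.72%, and in no other member more than 1%. Only exact matches among GENCODE transcripts were sought, whereas the counts were made on RefSeq models. Uncertainty between near-identical paralogs was therefore not checked.

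HaCaT cells carried far more RNA for the envelope precursors IVL and FLG, for SCEL, for the protease KLK5 and for the lipid transporter ABCA12, whereas A431 cells carried far more for CALML3, CALML5 and ELOVL4. The test was edgeR's quasi-likelihood test, with a Benjamini-Hochberg FDR taken over every tested gene, and a call required both an FDR under 0.05 and a mean log2 CPM (logCPM) above 1. Among siYAP libraries 18 of the 28 tested members were called between lines (12 higher in HaCaT and 6 lower), where 58.5% of all genes were called (26.9% higher and 31.7% lower). Among YAP5SA libraries 14 were called (7 higher and 7 lower), where 50.2% of all genes were called (23.5% higher and 26.6% lower). The median log2 difference of the tested members was 1.47 with siYAP and 0.18 with YAP5SA, beside -0.025 and -0.042 over all genes. TMPRSS11E and CALML5, at the floor throughout a line, were tested only because the other line was high. Both are among these calls and in these medians. All 3 HaCaT libraries lay above all 3 A431 libraries in 18 members with siYAP (36.6% of all genes) and 9 with YAP5SA (28.1%), and below them in 7 (39.3%) and 9 (31.7%). The 12 members called in both were ABCA12, FLG, IVL, KLK5, SCEL, TGM1 and TMPRSS11E, higher in HaCaT, and CALML3, CALML5, DMKN, ELOVL4 and KRT80, lower. In these bulk libraries more cells expressing a gene cannot be told apart from more RNA of it per cell.

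FLG, which encodes profilaggrin, stood at 0.21, 0.551 and 0 CPM in the siYAP libraries of A431 cells and at 167, 184 and 221 CPM in those of HaCaT cells. Its log2 difference was 9.45 ± 0.40 (SE, n = 3 against 3) with siYAP and 10.32 ± 0.42 with YAP5SA (FDR 7.03e-10 and 9.31e-10, edgeR), with no overlap between lines. Involucrin (IVL), the first scaffold protein of the envelope, was at 4.89 to 5.10 CPM in A431 siYAP and 505 to 526 CPM in HaCaT siYAP libraries. The IVL difference was 6.68 ± 0.52 with siYAP and 4.03 ± 0.47 with YAP5SA, the latter with HaCaT libraries at 139, 25.4 and 52.1 CPM and A431 libraries at 4.39 to 4.45 CPM. All HaCaT libraries lay above all A431 libraries for both genes.

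KLK5, a kallikrein that starts the protease cascade of shedding, ranged from 0.688 to 1.58 CPM over the 8 A431 libraries and from 59.2 to 134 CPM over the 8 HaCaT libraries. SCEL (sciellin, an envelope-associated protein) differed by 5.11 ± 0.25 with siYAP and by 1.31 ± 0.21 with YAP5SA. The SCEL libraries of A431 cells were at 15.1, 11.1 and 8.68 CPM with siYAP and 41.3, 34.9 and 35.6 CPM with YAP5SA, so the narrower gap had its higher values in A431 cells and its lower values in HaCaT cells, which had 124, 70.6 and 81.4 CPM. ABCA12, the transporter that loads lipids into lamellar granules, differed by 4.62 ± 0.39 and 2.87 ± 0.35, with 0.549 to 1.45 CPM against 20.6 to 25 CPM under siYAP. TMPRSS11E was at least 197-fold higher in HaCaT cells with siYAP and at least 20.6-fold higher with YAP5SA, computed against 3 counts per library in A431 cells, where at most 0.0408 CPM was found.

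The genes on the A431 side were as clear. CALML5 was at 9.56, 14 and 17.4 CPM in A431 siYAP libraries and at 0, 0.0486 and 0 CPM in HaCaT siYAP libraries, at least 113-fold lower, and under YAP5SA it was at least 317-fold lower, with 21.3 to 27.4 CPM in A431. CALML3 differed by -8.01 ± 0.43 in siYAP libraries and was at least 374-fold lower under YAP5SA. ELOVL4, which elongates the very long chain fatty acids of barrier ceramides, differed by -5.70 ± 0.33 and -3.47 ± 0.28, with 28.9 to 30.2 CPM in A431 siYAP and 0.291 to 0.727 CPM in HaCaT siYAP libraries. The keratin KRT80 differed by -2.07 ± 0.12 and -2.45 ± 0.13. For each of these genes the lines did not overlap in either treatment.

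**Figure D2:**
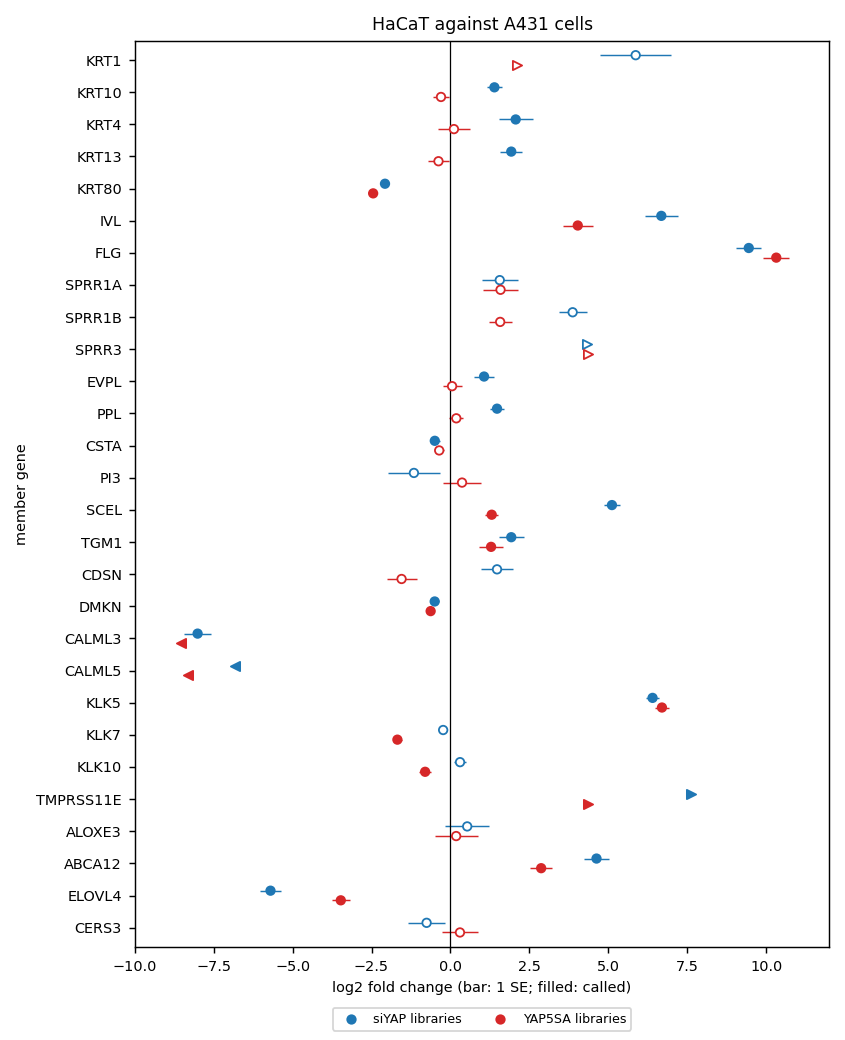
Log2 fold change of HaCaT over A431 libraries (x axis, bars 1 SE) for each of the 28 tested members (y axis), in siYAP libraries (blue) and YAP5SA libraries (red), 3 against 3, filled where called. A triangle is a lower bound on the fold where one line was at 3 counts or fewer, and a pair with no bound above 1-fold has no point. FLG and KLK5 lie far right and CALML3, CALML5 and ELOVL4 far left in both treatments.

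The keratins KRT10, KRT4 and KRT13 and the plakins PPL and EVPL were called between lines under siYAP and not under YAP5SA. KRT10, a partner of KRT1 in early suprabasal cells, was at 22 to 24.7 CPM in A431 siYAP and 56.6 to 66.9 CPM in HaCaT siYAP libraries (1.39 ± 0.25, FDR 0.000232, edgeR), and differed by -0.30 ± 0.25 under YAP5SA (FDR 0.317). KRT13 differed by 1.92 ± 0.35 and by -0.38 ± 0.34, and periplakin (PPL) by 1.47 ± 0.22 and 0.18 ± 0.22. Whether the difference between lines itself changed from siYAP to YAP5SA was not tested. CSTA, an envelope-linked protease inhibitor, was called in the siYAP comparison (-0.50 ± 0.15) but not without A431 siYAP replicate 1 (-0.31, FDR 0.0987), and TGM1, called under YAP5SA at 1.29 ± 0.39, was not called without HaCaT YAP5SA replicate 1 (0.60, FDR 0.0816).

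Depletion of YAP in HaCaT cells raised 5 of the 28 tested members against siCTRL, TMPRSS11E, FLG, KLK7, KLK5 and ELOVL4, and lowered none. Over all genes 5.67% were called, 2.37% higher and 3.3% lower. The median log2 fold change of the tested members was 0.72 as fitted, beside 0.028 over all genes. It was 0.45 with the 6 members at 3 counts or fewer in a group reset. These were set to their bound, or to no change where no bound was above 1-fold. In 20 members all 3 siYAP libraries lay above the siCTRL library and in 4 all lay below it, where 36.3% and 33.4% of all genes did. With 3 libraries against 1 an exact permutation test cannot give a p under 0.25, so the calls rest on the spread shared by the groups of the model.

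Among the proteases, TMPRSS11E was at 3.17 CPM in the control and at 26, 18 and 18.4 CPM after depletion, all 3 well above the control. It rose by 2.71 ± 0.39 on the log2 scale (FDR 0.00256, edgeR). KLK7, the chymotrypsin-like kallikrein that cuts corneodesmosin, rose from 11.7 CPM to 23.8, 21.7 and 22.5 CPM (0.95 ± 0.20, FDR 0.0138), a call lost when each line was fitted alone (0.93, FDR 0.0892). KLK5 rose from 59.2 CPM to 119, 103 and 107 CPM (0.89 ± 0.23, FDR 0.0398), and was no longer called when any 1 of the siYAP libraries was left out (FDR 0.0596 to 0.101). KLK10, chosen after its values were seen, was at 54.9 CPM and then 84.9, 103 and 74.9 CPM and did not pass (FDR 0.197).

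Of the envelope precursors FLG alone was called. It was at 40.2 CPM in the control and at 167, 184 and 221 CPM after depletion, a rise of 2.24 ± 0.39 (FDR 0.00561, edgeR) with every siYAP library above the control. IVL was at 461 CPM and then 505, 505 and 526 CPM (0.15 ± 0.56, FDR 0.921). SPRR1B, a small proline-rich precursor, was at 0.874 CPM and then 3.10, 2.23 and 2.44 CPM (1.57 ± 0.59, FDR 0.150), and had a logCPM under the limit for a call. SCEL was at 541 CPM and then 452, 369 and 402 CPM (-0.41 ± 0.28, FDR 0.467). SPRR1B was above its control and SCEL below it in every siYAP library.

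The transglutaminase TGM1, which anchors the envelope at the plasma membrane, was at 27 CPM in the control and 78, 80.5 and 79.5 CPM after depletion (1.55 ± 0.59, FDR 0.156). The 3 siYAP libraries were close to each other and all above the control, yet TGM1 did not pass. The keratins likewise gave no call. KRT1 was at 2.73 CPM and then 4.33, 5.63 and 4 CPM, and KRT10 at 45.2 CPM and then 66.9, 56.6 and 60.8 CPM (0.44 ± 0.35, FDR 0.543). KRT13 was lower in every siYAP library, at 1334, 1136 and 1286 CPM against 2235 CPM, without passing (FDR 0.334).

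Among barrier lipid genes ELOVL4 had no count in the control and 0.619, 0.291 and 0.727 CPM after depletion, at least 3.33-fold higher against 3 counts in the control library (FDR 0.0447, edgeR). This call was lost without siYAP replicate 1 (FDR 0.0789), without replicate 3 (FDR 0.0874), with each line fitted alone (FDR 0.114) and in DESeq2 (adjusted p 0.0547), and the fitted change turned to -0.38 when siCTRL and empty vector served together as 2 controls. ABCA12 was at 16.2 CPM and then 23.4, 20.6 and 25 CPM (0.51 ± 0.46, FDR 0.607). The untested desmosomal cadherins DSG1 and DSC1, chosen after their values were seen, were at 0.218 and 0.109 CPM with siCTRL and at 0.529 to 1.16 and 0.496 to 1.02 CPM with siYAP. In counts, DSG1 had 4 with siCTRL and 16 to 30 with siYAP, and DSC1 had 2 and 13 to 21.

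The level in the empty vector library of HaCaT cells, the control of the other arm, is given beside these rises. FLG, KLK7 and TMPRSS11E were higher in every siYAP library than in both the siCTRL and the empty vector library, which had 108, 10.8 and 10.7 CPM of them. KLK5 in siYAP libraries lay around the empty vector value of 113 CPM, and ELOVL4 lay below the 1.31 CPM of the empty vector library. With siCTRL and empty vector as 2 controls, KLK7 and TMPRSS11E were called, and FLG (1.36, FDR 0.0602) and KLK5 (0.35, FDR 0.358) were not.

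In A431 cells no member was called against siCTRL in edgeR's test, where 5.6% of all genes were called (1.81% higher and 3.78% lower). At an unadjusted p under 0.05 there were 5 members, CSTA, ELOVL4, KLK7, PI3 and TGM1, beside 22.2% of all genes, and DESeq2 called 3 (CSTA, KLK7 and TGM1). The median log2 fold change was 0.28 for the tested members as fitted and 0.029 for all genes. With 5 members reset to their bound or to no change, the members' median was 0.12. All siYAP libraries lay above the control in 9 members (37.4% of all genes) and below it in 6 (34.9%). TGM1 was at 5.19 CPM and then 21.2, 22.8 and 18.6 CPM (2.01 ± 0.66, FDR 0.0944). KLK7 was at 39.8 CPM and then 24.5, 28.4 and 27 CPM (-0.58 ± 0.18, FDR 0.0734), all below the control. IVL was at 2.15 CPM and then 5.00, 5.10 and 4.89 CPM (1.21 ± 0.81, FDR 0.409), KRT10 at 17.6 CPM and then 23.7, 22 and 24.7 CPM, and CSTA at 26.1 CPM and then 50.8, 37.7 and 39.7 CPM (0.71 ± 0.22, FDR 0.0817). The A431 empty vector library was, as the siYAP libraries were, above siCTRL for TGM1 (27.1 CPM), IVL (4.68 CPM), CSTA (63 CPM) and KRT10 (27 CPM), and equal to it for KLK7 (39.8 CPM).

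**Figure D3:**
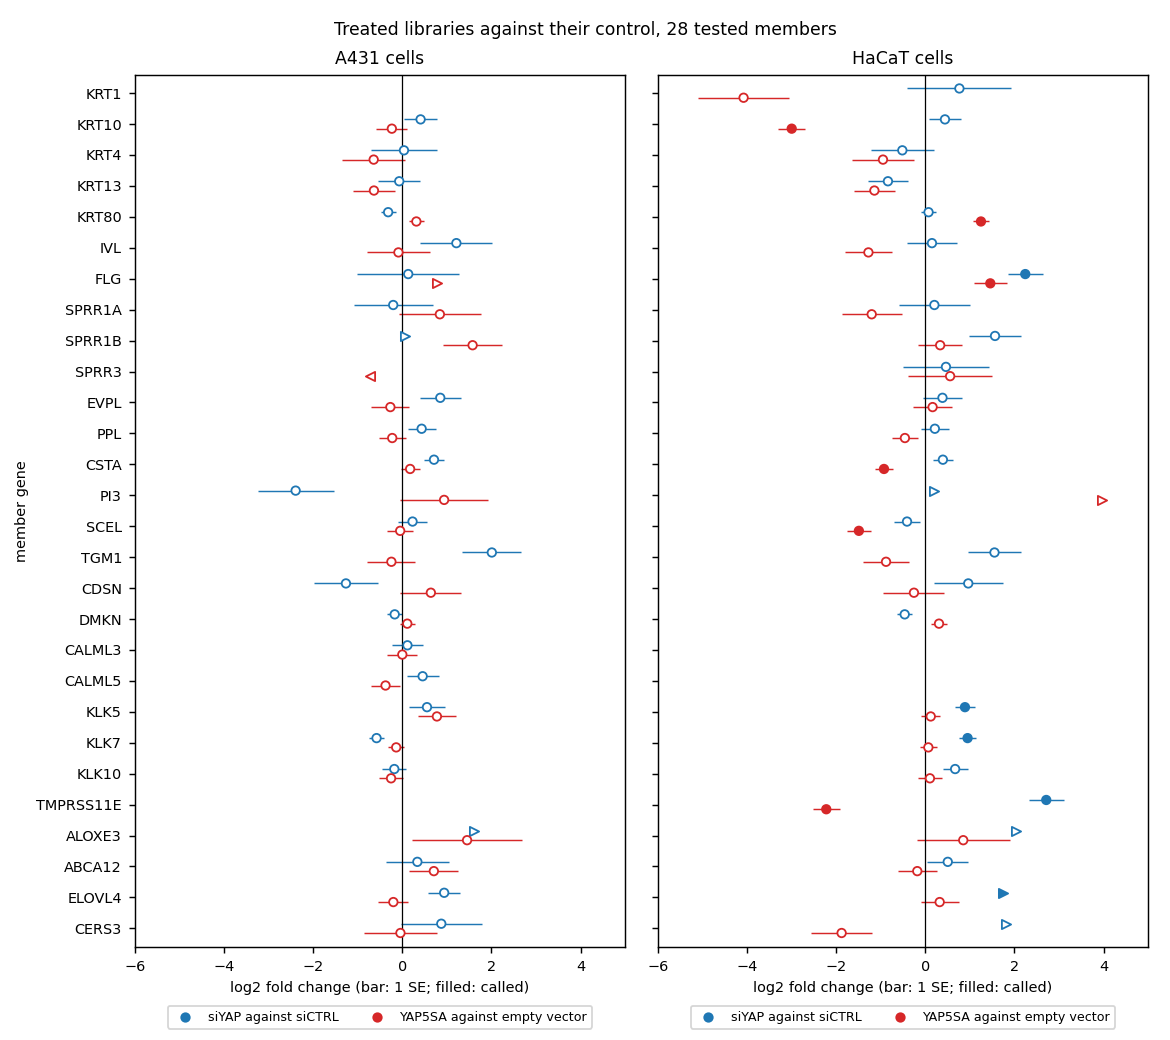
Log2 fold change against the control (x axis, bars 1 SE) of the 28 tested members (y axis) in A431 (left) and HaCaT cells (right), for siYAP against siCTRL (blue) and YAP5SA against empty vector (red), 3 libraries against 1, filled where called. Triangles are lower bounds where one group was at 3 counts or fewer, and pairs with no bound above 1-fold have no point. No point is filled in A431 cells, and in HaCaT cells TMPRSS11E is filled on both sides of 0.

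In HaCaT cells YAP5SA changed 6 of the 28 tested members against the empty vector. It lowered KRT10, TMPRSS11E, SCEL and CSTA and raised FLG and KRT80. Over all genes 13.6% were called (6.99% higher and 6.64% lower). The median log2 fold change was -0.054 for the tested members as fitted and 0.013 for all genes. With 3 members reset to their bound or to no change, the members' median was -0.089. All 3 YAP5SA libraries lay below the empty vector library in 11 members and above it in 5, where 33.9% and 32.1% of all genes did.

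KRT10 fell furthest among the called members. It was at 149 CPM with the empty vector and 29.3, 11.8 and 14.8 CPM with YAP5SA (-2.99 ± 0.31, FDR 0.000548, edgeR), and the YAP5SA libraries were also below the siCTRL library at 45.2 CPM. Its partner KRT1 was at 8.21 CPM and then 0.947, 0 and 0.484 CPM (-4.07 ± 1.03, FDR 0.0264). KRT1 thus passed the FDR but had a logCPM of 0.77, under the limit for a call, and did not pass in DESeq2 (adjusted p 0.434). By the FDR alone 8 members passed, where 14.7% of all genes did. KRT80, a type II keratin, rose from 27.3 CPM to 59.8, 61.2 and 74.1 CPM (1.25 ± 0.19, FDR 0.00329), while the siCTRL library had 78.8 CPM.

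Among the envelope genes FLG rose from 108 CPM to 209, 363 and 317 CPM (1.46 ± 0.37, FDR 0.0228, edgeR), so that FLG was above its own control in both arms of HaCaT cells. This call was lost in DESeq2 (adjusted p 0.0510) and without YAP5SA replicate 3 (FDR 0.0502). SCEL fell from 258 CPM to 124, 70.6 and 81.4 CPM (-1.49 ± 0.27, FDR 0.00690), all below both control libraries. CSTA fell from 105 CPM to 54.8, 67.2 and 44.7 CPM (-0.92 ± 0.20, FDR 0.0122), and the siCTRL library had 23 CPM, so CSTA lay between the 2 controls. IVL was at 174 CPM and then 139, 25.4 and 52.1 CPM (-1.27 ± 0.52, FDR 0.116), and TGM1 at 103 CPM and then 98.1, 20.6 and 48.8 CPM (-0.88 ± 0.51, FDR 0.251), wide spreads that did not pass. SPRR1B was at 2.61 CPM and then 3.41, 3.96 and 2.52 CPM (0.34 ± 0.50), overlapping its control. PI3, at 0 CPM and then 0.819, 2.93 and 0.714 CPM, was at least 15.6-fold higher against 3 counts (FDR 0.0219) with a logCPM under the limit for a call.

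The protease TMPRSS11E fell from 10.7 CPM to 2.48, 2.35 and 2.06 CPM (-2.22 ± 0.30, FDR 0.00325, edgeR), below the siCTRL library too, at 3.17 CPM. It was the 1 member called higher with siYAP and lower with YAP5SA in the same line. KLK7 stood at 10.8 CPM and 11.1, 13.3 and 9.51 CPM (0.07 ± 0.19), and KLK5 at 113 CPM and 134, 118 and 117 CPM (0.12 ± 0.22). Neither kallikrein passed. The lipid genes ELOVL4 and ABCA12 overlapped their control, at 2.18, 0.918 and 1.78 CPM against 1.31 CPM and at 20.5, 28.9 and 23.2 CPM against 27.4 CPM.

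With siCTRL and empty vector as 2 controls, CSTA (-0.21, FDR 0.785) and KRT80 (0.30, FDR 0.557) were not called, whereas KRT10, SCEL, TMPRSS11E and FLG were, and IVL (-2.14, FDR 0.0191) and KRT13 were called as well. HaCaT YAP5SA replicate 1 stood apart from the other 2 in several members, among them KRT4, at 549 CPM against 71.4 and 141 CPM. The same held for KRT13, at 684 CPM against 219 and 254 CPM, and IVL, at 139 CPM against 25.4 and 52.1 CPM. Replicate 2 stood apart in other members, with PPL at 93.8 CPM against 204 and 193 CPM and EVPL at 12.1 CPM against 30.1 and 36.7 CPM. Across genes, the chi-square of the counts per degree of freedom was 143 between replicates 1 and 2, 107 between 2 and 3, and 70.6 between 1 and 3. YAP1 was at 7546 CPM in replicate 1 and at 22243 and 10064 CPM in replicates 2 and 3, and the part of this in the spread was not tested. Without replicate 1 there were 10 members called in place of 6, the same 6 plus IVL, KRT4, KRT13 and TGM1, all 4 lower (IVL by -2.17 and TGM1 by -1.56). The share of all genes called in that fit is not given here, so the higher count cannot be read as particular to the members.

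**Figure D4:**
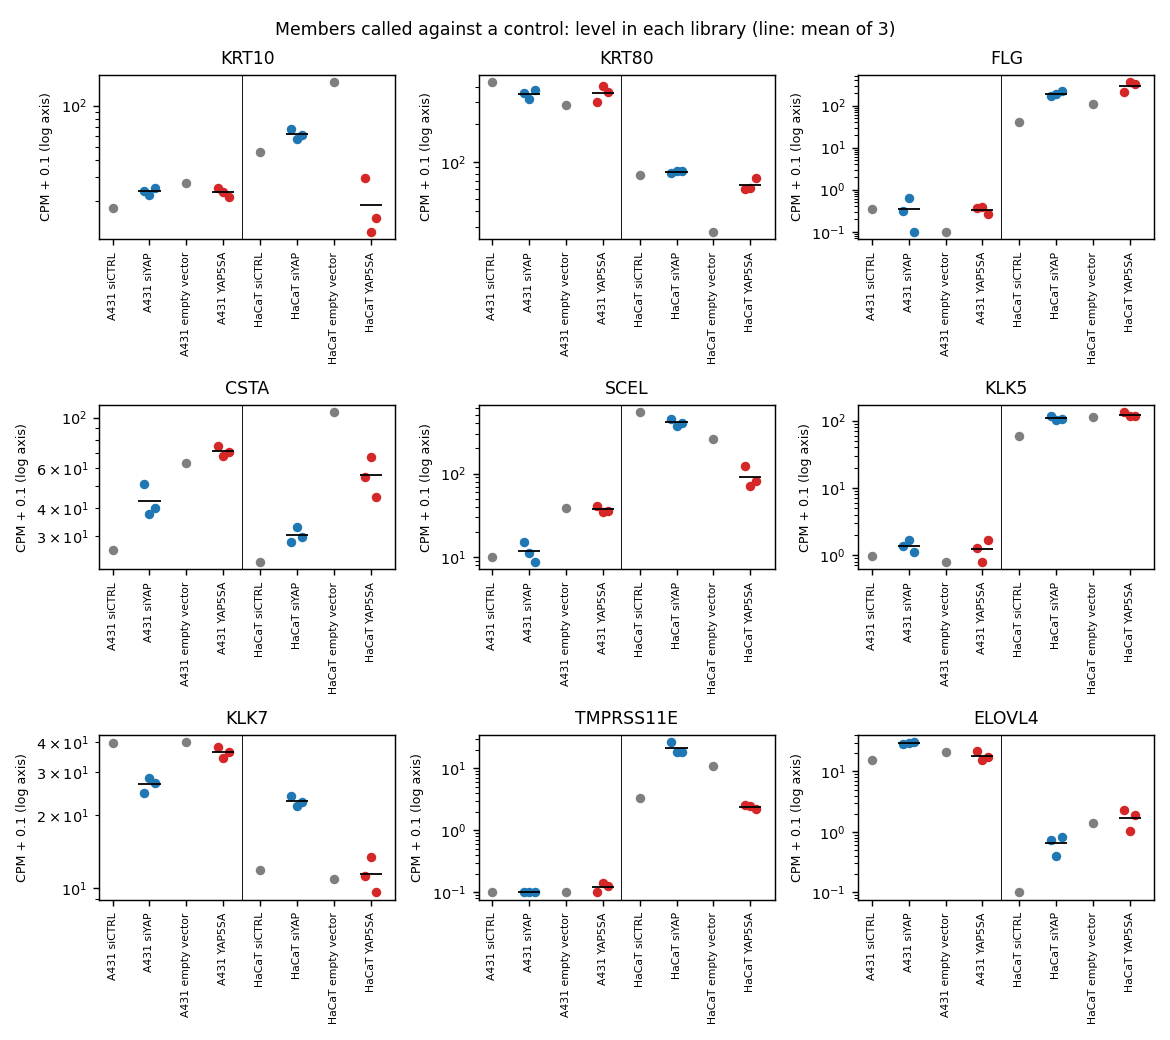
CPM + 0.1 (y axis, log scale, own range in each panel) in every library of the 9 members called against a control in either arm, by group (x axis). Points are libraries, grey for controls, blue for siYAP and red for YAP5SA, and horizontal lines are means of 3. TMPRSS11E in HaCaT cells sits at 18 to 26 CPM with siYAP and at 2.06 to 2.48 CPM with YAP5SA, on opposite sides of the 2 controls.

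In A431 cells no member was called with YAP5SA against the empty vector, and no gene at all was called (0% of 14673) in edgeR's test. At an unadjusted p under 0.05 there was 1 member, SPRR1B, and 828 genes (5.64%), and DESeq2 called 0 members. SPRR1B was at 0.367 CPM and then 1.08, 1.31 and 0.945 CPM (1.58 ± 0.66, FDR 0.803). KRT10 was at 27 CPM and then 24.6, 23.2 and 21.2 CPM, IVL at 4.68 CPM and then 4.39, 4.45 and 4.39 CPM, and TGM1 at 27.1 CPM and then 29.5, 18.5 and 20.9 CPM. The members' median log2 fold change was -0.021, beside 0.020 over all genes, and 9 members lay above and 10 below the control in all 3 libraries, where 28.9% and 24.5% of genes did.

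Setting the 3 YAP5SA against the 3 siYAP libraries gave replicates on both sides, but the arms also differed in vector and siRNA transfection. In HaCaT cells 14 members were called (4 higher with YAP5SA and 10 lower), where 60% of all genes were called (31.5% higher and 28.5% lower). The 10 lower were KRT10, KRT4, KRT13, KRT80, IVL, EVPL, PPL, SCEL, KLK7 and TMPRSS11E, which are keratins, plakins and other envelope proteins, and proteases. The 4 higher were FLG, CSTA, DMKN and ELOVL4. The arms did not overlap in 16 members, 5 higher with YAP5SA (34.3% of all genes) and 11 lower (37.4%). IVL was -2.83 ± 0.42 (FDR 5.34e-05, edgeR), KRT10 was -1.72 ± 0.25 (FDR 4.24e-05), and the plakins PPL and EVPL, which link keratin filaments to the envelope, were -1.36 ± 0.22 and -1.07 ± 0.30. PPL was at 387, 407 and 469 CPM with siYAP and 204, 93.8 and 193 CPM with YAP5SA, with no overlap. FLG overlapped between the arms (0.64 ± 0.24, FDR 0.0298), and its call was lost in DESeq2 (adjusted p 0.142) and without 1 of several libraries, siYAP replicate 1 or 2 or YAP5SA replicate 2 or 3 (FDR 0.0784 to 0.112). The call of KRT80 was lost without siYAP replicate 3 or YAP5SA replicate 1 or 2 (FDR 0.0582 to 0.0646).

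In A431 cells 9 members were called (8 higher with YAP5SA and 1 lower), where 34.6% of all genes were called (20% higher and 14.6% lower). The arms did not overlap in 13 members higher with YAP5SA (26.9% of all genes) and 2 lower (27.1%). SCEL was at 15.1, 11.1 and 8.68 CPM with siYAP and 41.3, 34.9 and 35.6 CPM with YAP5SA (1.66 ± 0.22, FDR 0.000106, edgeR). ABCA12 was 1.82 ± 0.39, CALML5 0.90 ± 0.24, CALML3 0.75 ± 0.24 and CSTA 0.73 ± 0.15 higher, with KLK7, KLK10 and DMKN also higher, and ELOVL4 was lower (-0.70 ± 0.24, FDR 0.0373). SPRR1B passed the FDR (2.64 ± 0.45, FDR 0.000691) with a logCPM under the limit for a call, and by the FDR alone 11 members passed, where 37.2% of genes did. Without A431 siYAP replicate 1, or without YAP5SA replicate 3, 5 members were called, ABCA12, CSTA, DMKN, KLK10 and SCEL. ELOVL4 was also lost without siYAP replicate 2 or 3 or YAP5SA replicate 2 (FDR 0.0840 to 0.132), and CALML3 without siYAP replicate 2 (FDR 0.0659) or YAP5SA replicate 2 (FDR 0.0887).

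The 2 control libraries of a line also differed from each other in many of these members. Empty vector over siCTRL went the same way as YAP5SA over siYAP in 8 of the 9 called A431 members, all but ELOVL4. In HaCaT cells it did so in 11 of the 14 called members, all but KRT10, DMKN and TMPRSS11E. ELOVL4 was counted there although its siCTRL library had no count. The same share over all called genes is not given here, so these counts cannot be read as particular to the members. For SCEL in A431 cells the empty vector library had 38.5 CPM and the siCTRL library 10 CPM, close to the YAP5SA and siYAP libraries of their own arms. For KLK7 in A431 cells both controls were at 39.8 CPM, so the direction counted for it rests on almost no difference. For IVL in HaCaT cells the controls were at 174 and 461 CPM, and for KRT10 at 149 and 45.2 CPM. With 1 library for each control these differences have no replicate check, and the effect of the arm cannot be told apart from that of YAP in this comparison.

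**Figure D5:**
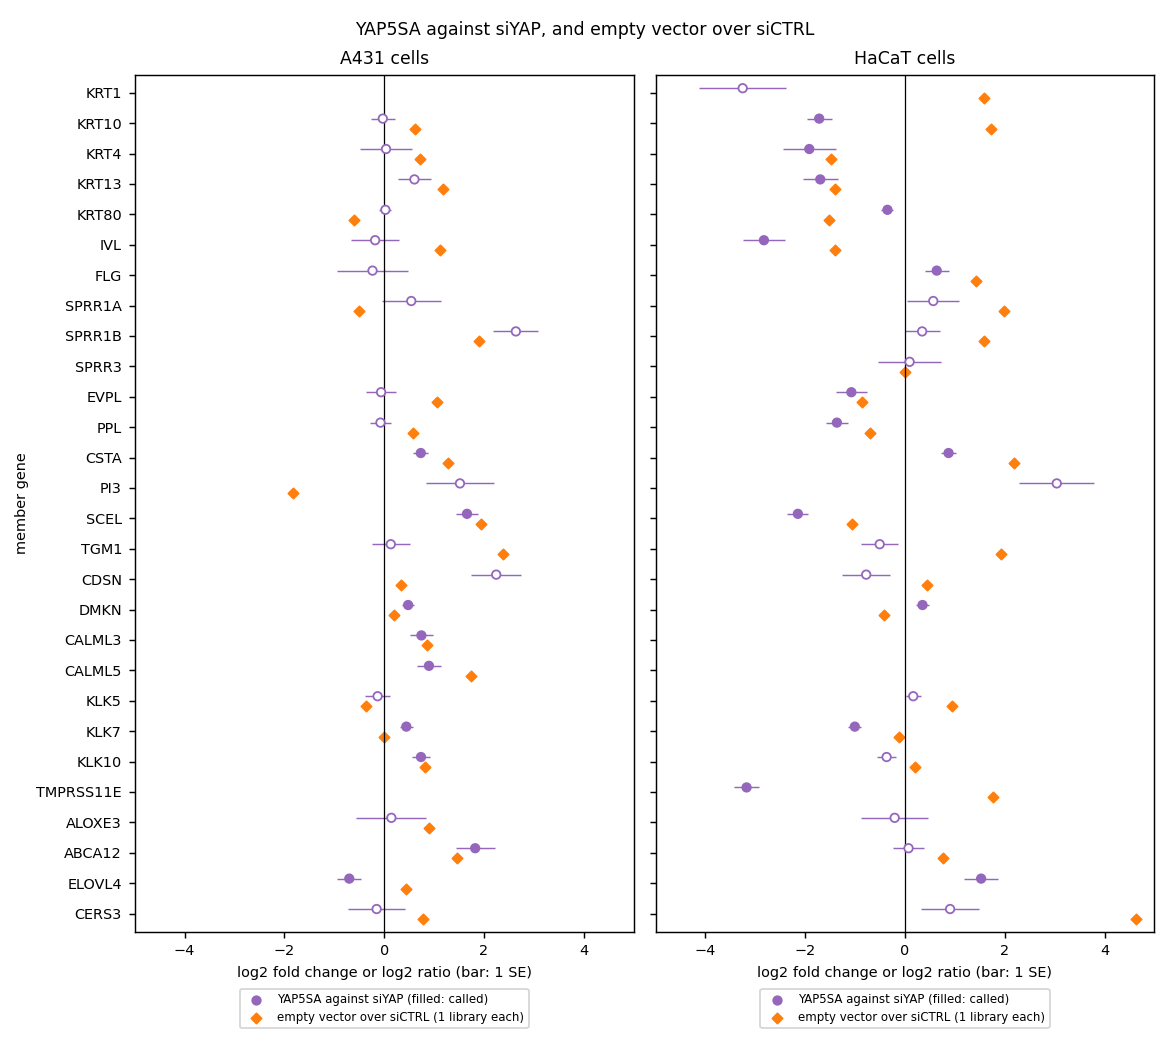
Log2 fold change of YAP5SA over siYAP libraries (purple circles, 3 against 3, bars 1 SE, filled where called) and log2 ratio of the empty vector over the siCTRL library (orange diamonds, 1 library each) for the 28 tested members (y axis) in A431 (left) and HaCaT cells (right). Pairs with a group at 3 counts or fewer and no bound above 1-fold, and ratios with a control at 0, have no mark. In A431 cells the diamonds of SCEL, CSTA and CALML5 lie on the same side as the circles, and in HaCaT cells those of KRT10 and TMPRSS11E lie on the opposite side.

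Whether a treatment acted differently in the 2 lines was tested with an interaction term. For siYAP it was passed by 1 member, KLK7, where 0.17% of all genes passed. KLK7 was higher in every siYAP library than in siCTRL in HaCaT cells and lower in every one in A431 cells, a difference of 1.53 ± 0.26 on the log2 scale (FDR 0.0493, edgeR). It did not pass when any 1 siYAP library was left out (FDR 0.0788 to 0.135). For YAP5SA no member passed in edgeR, where 0.0886% of genes did. At an unadjusted p under 0.05 there were 5 members, CSTA, KRT10, KRT80, PI3 and SCEL, beside 22.4% of all genes, and DESeq2 called 4, the same without PI3. KRT10 had a difference of -2.76 ± 0.50 (FDR 0.0523). Without HaCaT YAP5SA replicate 1 there were 4 members past the threshold (IVL, KRT10, KRT80 and SCEL), and 2 without replicate 2 of that group or A431 YAP5SA replicate 1. The share of all genes passing in those fits is not given here.

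Other genes of the same program were read from hand-written lists. Of 16 tested regulators of epidermal differentiation, siYAP raised 2 in HaCaT cells, the transcription factors CEBPB (1.09 ± 0.23) and MAF (2.12 ± 0.54), and in A431 cells CEBPB alone (0.87 ± 0.21). YAP5SA lowered 3 in HaCaT cells, MAF (-2.26 ± 0.45), GRHL1 (-0.75 ± 0.16) and ELF3 (-0.82 ± 0.25). Their medians were 0.20 with siYAP and -0.096 with YAP5SA in HaCaT cells, beside 0.028 and 0.013 over all genes. Of 18 tested further genes of the cornified layer, siYAP raised SPINK5, an inhibitor of kallikreins (2.73 ± 0.42), and HRNR, a filaggrin relative (1.43 ± 0.37), in HaCaT cells. YAP5SA lowered SPINK5 (-1.86 ± 0.31), TCHH (-1.40 ± 0.33) and SERPINB13 (-1.23 ± 0.33) there. The list as a whole did not fall with YAP5SA. Its medians in HaCaT cells were 0.75 with siYAP and 0.11 with YAP5SA, beside 0.028 and 0.013 over all genes. In A431 cells none of these 18 genes was called in either arm.

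Markers of other layers and cell types moved in the same libraries. Of 14 basal layer genes siYAP raised KRT14, the basal keratin, in A431 (1.31 ± 0.33) and HaCaT cells (1.62 ± 0.34), with 1 more higher in A431 cells and 1 lower in HaCaT cells. YAP5SA in HaCaT cells raised 4 basal genes and lowered 2, the latter with KRT15 (-2.23 ± 0.37), where 6.99% of all genes were called higher and 6.64% lower. The median of the 14 basal genes there was 0.21, beside 0.013 over all genes. Of 8 tested genes of simple epithelia and mesenchyme, 5 rose with YAP5SA in HaCaT cells, among them KRT8 (1.46 ± 0.21), KRT18 (1.46 ± 0.20) and FN1 (2.65 ± 0.60), and the summed level of the list was 2982 to 3736 CPM against 1645 CPM with the empty vector and 1603 CPM with siCTRL. The part of these markers in the fall of KRT10, SCEL and TMPRSS11E was not tested. Of 10 melanocyte and leukocyte genes 5 were tested and TYR had no count in any library, and 1 was called higher in each HaCaT arm. Of 14 YAP target genes 10 rose with YAP5SA in HaCaT cells and none was called in A431 cells, while siYAP raised 1 and lowered 1 in A431 cells and lowered 1 in HaCaT cells.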

How the data were processed

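The members, gene lists, tests and alternatives were chosen with earlier results of these data known. The authors deposited RSEM estimated counts per gene symbol, unscaled, which they made by trimming read pairs to 75 bp and aligning them to RefSeq gene models. The submitters' processing notes give RSEM 1.2.11 and hg19, whereas the Materials and Methods give another RSEM version. Counts were rounded and tested in R 4.3.3 with edgeR 4.0.16 (TMM factors 0.914 to 1.07, quasi-likelihood test, prior count 0.125, 1 model of 8 groups, 8 residual degrees of freedom) and limma 3.58.1, on genes with a mean above 10 counts. The limits for a call (FDR 0.05, logCPM 1) are those of the study. The SE is the log2 fold change over the square root of F. A group with 3 counts or fewer in every library gives a bound, against 3 counts per library, that covers counting error only. The test was also run on simulated counts that had the same dispersion (spread) for all genes and groups, so it was not checked for unequal spreads.

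Named members were KRT1, KRT10, IVL, TGM1 and SPRR1B, those called against a control, those called between lines in both treatments (at most 8 by size) and those passing an interaction, 16 in all. Others were chosen after their values were seen. Treated libraries are biological triplicates by the study's methods, which do not say how cultures were separated. Replicates differed by more than sampling noise. Deviations of same-numbered libraries of the 2 lines correlated at 0.162 to 0.398 with YAP5SA and at 0.00446 to 0.256 with siYAP, and between arms at -0.0638 to 0.112. Under YAP5SA every same-numbered pair was thus above the rule of 0.1. So were HaCaT replicate 3 with A431 replicate 2, at 0.323, and HaCaT replicate 2 with A431 replicate 3, at 0.117. Numbers 2 and 3 therefore do not single out a pair between the lines. DESeq2 1.42.0 was an alternative. Promoters were read with Python 3.11.15 and pandas 2.3.3 and figures drawn with matplotlib 3.10.9.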

Additional observations from a re-analysis of the deposited data

Results flagged for a closer look

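The effect of siYAP on KLK7 differed between the lines by 1.53 on the log2 scale (HaCaT minus A431, FDR 0.0493, edgeR's quasi-likelihood test). In HaCaT cells siYAP libraries had 23.8, 21.7 and 22.5 CPM against 11.7 CPM with siCTRL, and in A431 cells 24.5, 28.4 and 27 CPM against 39.8 CPM. The siYAP levels of the lines were close to each other and the single siCTRL libraries far apart, and the spread between control cultures was not measured. The empty vector libraries had 10.8 CPM in HaCaT and 39.8 CPM in A431 cells. The YAP5SA libraries had 9.51 to 13.3 CPM in HaCaT and 34.2 to 38.1 CPM in A431 cells.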

How the results depend on the processing

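The limits are the single control library of each arm, the low depth of 12 untested members, and a test that shares its spread over all groups. Counts of called members kept within 1.5 times of the reported values except as follows, and the cause was not tested where none is named. For siYAP in A431 cells the count went from 0 to 3 in DESeq2 and 4 with each line fitted alone. For siYAP in HaCaT cells it went from 5 to 2 with more than 10 counts in every library (fewer genes tested), 3 with each line alone and 2 when siCTRL and empty vector were pooled as controls. ELOVL4 reversed there, to -0.38. For HaCaT against A431 with YAP5SA it went from 14 to 9 with more than 10 counts in every library. The siYAP interaction went from 1 to 0 with RLE size factors, and the YAP5SA interaction from 0 to 4 in DESeq2, 1 with RLE size factors, 1 without a count filter and 2 with more than 10 counts in every library. Leaving out 1 treated library gave 3 to 4 called members for siYAP in HaCaT cells, 5 to 10 for YAP5SA in HaCaT cells, 5 to 9 for YAP5SA against siYAP in A431 cells, 0 for the siYAP interaction in every case, and 0 to 4 for the YAP5SA interaction. FDR alone as the rule left siYAP against siCTRL at 5 in HaCaT cells and gave 8 for YAP5SA. With the replicate number as a block in the 12 treated libraries, the counts were 18 and 15 between lines with siYAP and YAP5SA, and 9 and 14 between arms in A431 and HaCaT cells, and without the number in the same libraries, an alternative chosen after the data were seen, they were 18, 14, 9 and 14. The block moved no count by over 1.5 times. No alternative moved the median of all genes by over 0.1.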
